A study of Mus musculus with 9 samples.

Results

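Neurons of the mouse central amygdala that carry the neuropeptide genes Crh, Tac2 or Nts but neither Sst nor Prkcd made up 76 of 829 single cells, and are called peptide cells here. They were chosen by their measured counts of 10 genes. A gene was scored positive in a cell at 1 count or more per 10000 counts over all genes, spike-in controls excluded. On the CPM scale (counts per 1000000 gene counts) this is 100. The 810 inhibitory neurons had a positive score for Gad1, Gad2 or Slc32a1, which make or load GABA, and none for the glutamate transporters Slc17a6 and Slc17a7. Peptide cells were those of them with a negative score for Sst and Prkcd and a positive one for 1 or more of the peptide genes. All cells came from wild-type (WT) mice of the B6 strain. Central amygdala tissue was microdissected, dissociated and pooled over acute slices, giving 9 samples of 1 group with 85 to 95 cells each. Pooled tissue does not tie a cell to a subdivision of the nucleus, and the age of the mice was not used here. A table of the cells gives 3 animal numbers crossed with 3 date fields. No source used here says that the samples are separate animals. The p-values therefore reflect the spread among these samples alone, which may be technical.

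The central amygdala is a forebrain nucleus of mostly GABAergic neurons that takes part in fear, pain and feeding. Its neurons are often sorted by Prkcd, which encodes protein kinase C delta, and by Sst, which encodes somatostatin. Crh encodes corticotropin-releasing hormone, Tac2 the precursor of neurokinin B, and Nts the precursor of neurotensin, and each peptide acts through its own G protein-coupled receptors. The protein of Isl1 is a LIM homeodomain transcription factor that acts in the development of many neurons, striatal ones among them.

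The promoters of Tac2 and Nts, the peptide genes found in most of these cells, are shown as the last 250 bases before the annotated start, from RefSeq on GRCm38.p6. Tac2 lies at chr10:127724228-127724477 on the plus strand and Nts at chr10:102490419-102490668 on the minus strand, each given 5′ to 3′ along its own strand. Capitals mark matches, on either strand, to 4 motifs. These were the cyclic AMP response element TGACGTCA, its core TGACG, the AP-1 site TGAGTCA and the homeodomain core TAATT.
Tac2: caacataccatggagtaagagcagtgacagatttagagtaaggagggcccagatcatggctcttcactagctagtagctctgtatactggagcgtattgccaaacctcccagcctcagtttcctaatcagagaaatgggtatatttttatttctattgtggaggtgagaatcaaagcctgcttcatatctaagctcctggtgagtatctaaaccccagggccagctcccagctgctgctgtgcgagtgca
Nts: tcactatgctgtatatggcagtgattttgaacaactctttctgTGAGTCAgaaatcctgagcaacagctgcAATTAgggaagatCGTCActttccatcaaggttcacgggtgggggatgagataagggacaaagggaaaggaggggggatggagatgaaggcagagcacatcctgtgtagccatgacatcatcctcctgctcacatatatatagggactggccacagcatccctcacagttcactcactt
The Nts window held 1 AP-1 site, 1 homeodomain core and 1 response element core, while the Tac2 window held no match to these letters. Of 27025 promoters of this length, 4.43% held the AP-1 site, 25.4% the homeodomain core, 17.9% the response element core and 1.62% the full response element. Such a core lies within each full element, so those matches overlap. These matches describe the letters of the windows and not the binding of any factor.

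The samples held 14, 3, 11, 14, 11, 6, 5, 7 and 5 peptide cells, in the order of their numbers. That was 9.25% ± 4.15 (SD, n = 9) of the inhibitory neurons, from 3.26% to 14.7%. Total gene counts were 8522750 to 22730327 per sample. The median peptide cell had 176088 gene counts and 5118.5 detected genes. Medians in the other classes used below were 119309 to 129325 counts, so the peptide cells were the most deeply counted class. In 7 of the 8 samples with at least 5 peptide cells, their median depth was above that of Prkcd or Sst cells. One peptide cell of sample 1 had only 542 counts and was positive on 1 count of Tac2 and 1 of Nts. No doublet caller was run. The 9 libraries drew on 376 well barcodes, 6 of 36 library pairs shared some of them (up to 95), and no 2 cells had identical counts.

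Some markers of other cell types were at 0 in the peptide cells and others were not. Slc17a6, Slc17a7, Slc17a8, Neurod6 and Tbr1 of excitatory neurons, Chat and Slc5a7 of cholinergic neurons, and Pdgfra and Olig2 of oligodendrocyte precursors all had 0 counts. Of the same lists Neurod2 and Olig1 had counts, at up to 4.21 and 0.971 CPM in a sample. Of 6 astrocyte genes, Aqp4, Gja1, Slc1a3 and Aldh1l1 had 0 counts, while the list's summed level was 24.7 to 772 CPM over samples because of Aldoc. The 8 oligodendrocyte genes summed to 25.6 to 109 CPM in peptide cells and to 118 to 218 CPM in Prkcd or Sst cells, with Mog at 0 in peptide cells. Genes shared with striatal projection neurons summed to 145 to 581 CPM against 495 to 730 CPM, and 51 of 76 peptide cells were positive for 1 or more. Endothelial genes summed to 20.1 to 81.4 CPM against 60.4 to 127 CPM (15 of 76 positive). Intercalated cell genes summed to 1.83 to 95.1 CPM against 5.31 to 58.4 CPM (16 of 76 positive). For interneuron genes 3 of 76 peptide cells were positive, and for microglial and ependymal genes 0. Of the peptide cells, 22.4% were positive for Mbp, the myelin basic protein gene, against 28.5% of Prkcd or Sst cells.

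Most peptide cells carried 1 of the 3 genes. Tac2 alone was found in 26 cells, Nts alone in 25 and Crh alone in 10. A further 8 cells had Tac2 with Nts, 4 had Crh with Nts, 1 had Crh with Tac2 and 2 had all 3. Crh was thus the least common, in 17 cells of 6 samples, against 37 cells with Tac2 and 39 with Nts, each spread over all 9 samples. These counts describe the rule that chose the cells and carry no test.

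Positive cells mostly lay far above the threshold. Crh ran from 168 to 2558 CPM in its positive peptide cells, with a median of 1060.0. Tac2 ran from 106 to 9395 CPM with a median of 1152, and Nts from 116 to 3351 CPM with a median of 576. Levels were not corrected for gene length, so the 3 genes cannot be ranked by them. Just inside the threshold, 7 peptide cells had their highest peptide at under 200 CPM. Just outside it, none of the 266 inhibitory neurons negative for all 5 genes exceeded 44.8 CPM of any peptide gene. Sst reached 85.5 CPM and Prkcd 83.4 CPM in the peptide cells, with 33 cells at 0 counts of Sst and 46 at 0 counts of Prkcd.

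Of all 193 inhibitory neurons with a peptide gene, 39.4% lacked both Sst and Prkcd. The share was 20.2% of 84 Crh-positive neurons, 33.6% of 110 Tac2-positive and 33.9% of 115 Nts-positive neurons.

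**Figure D1:**
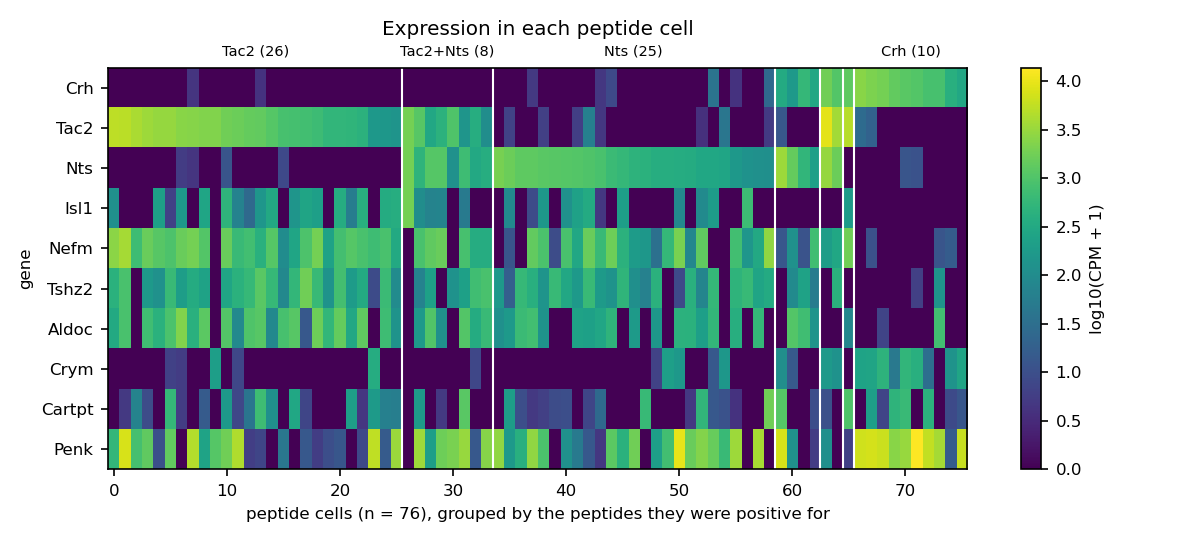
Expression of 10 genes (rows) in the 76 peptide cells (columns) as log10(CPM + 1), with white lines between cells of different peptide combinations. The largest sets are 26 cells with Tac2 alone and 25 with Nts alone, and the 10 cells with Crh alone have no Nefm-positive cell and mostly carry Crym and Penk.

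Isl1 was found most often in peptide cells with Tac2, and its association with Tac2 passed the test as an odds ratio but not as a difference in percentage points. Of the peptide cells, 24 (31.6%, exact 95% binomial interval 21.4% to 43.3%) were Isl1-positive. Among cells with Tac2 alone 14 of 26 (53.8%, 33.4% to 73.4%) were positive, among those with Nts alone 7 of 25 (28%, 12.1% to 49.4%), and among those with Crh alone 0 of 10 (up to 30.8%). The single Isl1-positive cell with Crh also carried Tac2. These intervals cover counting error only, and cells of 1 sample share their source. In other inhibitory neurons the Isl1-positive share was 2.28% of 351 Prkcd or Sst cells without a peptide and 4.35% of 69 Sst cells with a peptide. It was 12.4% of the 266 cells negative for all 5 genes.

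Across samples the association was tested in all 342 inhibitory neurons lacking Sst and Prkcd, because a peptide cell negative for 1 of the 3 genes must by the rule carry another. The log2 odds ratio of Isl1 with Tac2, computed per sample, was 3.33, 1.45, 4.73, 2.19, 0.66, 2.65, -0.41, 1.78 and 1.15. It was above 0 in every sample but the seventh. In the fifth, seventh and ninth samples no cell carried both genes, so the values above 0 in the fifth and ninth come from the 0.5 added to each entry of the table. Its mean was 1.95 ± 1.52 (SD, n = 9), with an exact two-sided sign-flip p of 0.0078 (adjusted over the 3 peptides, 0.0234). For Nts the mean was 0.77 ± 2.07 (SD, n = 9), above 0 in 5 of 9 samples, with an exact p of 0.332 (adjusted 0.498). For Crh it was -0.15 ± 0.77 (SD, n = 6), above 0 in 2 of 6 samples, with an exact p of 0.656, where 6 samples allow no p below 0.0312. In 5 of these 6 samples no cell carried both Isl1 and Crh. The 2 values above 0 are among those 5 and come from the added 0.5. The single association depended on the positive level. At 3 counts per 10000 the mean was 1.86 for Tac2, 1.43 for Nts and 1.43 for Crh (adjusted exact p = 0.0234, 0.0391 and 0.0391), although only 1 of 21 Crh-positive cells was then Isl1-positive and the expected number was 1.23. The sign-flip test thus passed for Crh with fewer cells of both genes than expected. The p for Tac2 rests on the same odds ratio with 0.5 added. At any count of 1 or more the mean for Tac2 was 0.86 (adjusted exact p = 0.375).

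The ranking of the peptides was not settled by these samples. Tac2 exceeded Nts by 1.18 ± 3.01 log2 units (SD, n = 9; exact p = 0.273) and Crh by 2.20 ± 1.80 (SD, n = 6; exact p = 0.0625), adjusted over the 3 pairs to 0.41 and 0.188. Within the 3 date fields the mean for Tac2 was 3.17, 1.83 and 0.84, and that for Nts 0.10, -0.21 and 2.40. Tac2 was ahead in the first and second date field and Nts in the third. Within the 3 animal numbers the mean was 1.71, 1.30 and 2.84 for Tac2 and 0.74, 0.72 and 0.84 for Nts, with Tac2 ahead in all 3. Measured as a difference in percentage points, which needs no added constant, Isl1 was commoner by 18.8 ± 28.5 (SD, n = 9) in Tac2-positive cells, in 6 of 9 samples (adjusted exact p = 0.135). On that scale it was rarer by a mean of -15.0 ± 3.21 (SD, n = 6) in Crh-positive cells, lower in 6 of 6 samples. The exact p was the smallest that 6 samples allow (0.0312, adjusted 0.0938). In 5 of these 6 samples no cell carried both genes, so the difference there is minus the Isl1-positive share of Crh-negative cells. Over all samples 1 cell with both was seen and 2.83 were expected, too few to read the sign or the SD as a lack of Isl1 in Crh-positive cells. Sample 1 held 9 of the 24 Isl1-positive peptide cells, and the mean for Tac2 without it was 1.78 (adjusted exact p = 0.0469).

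**Figure D2:**
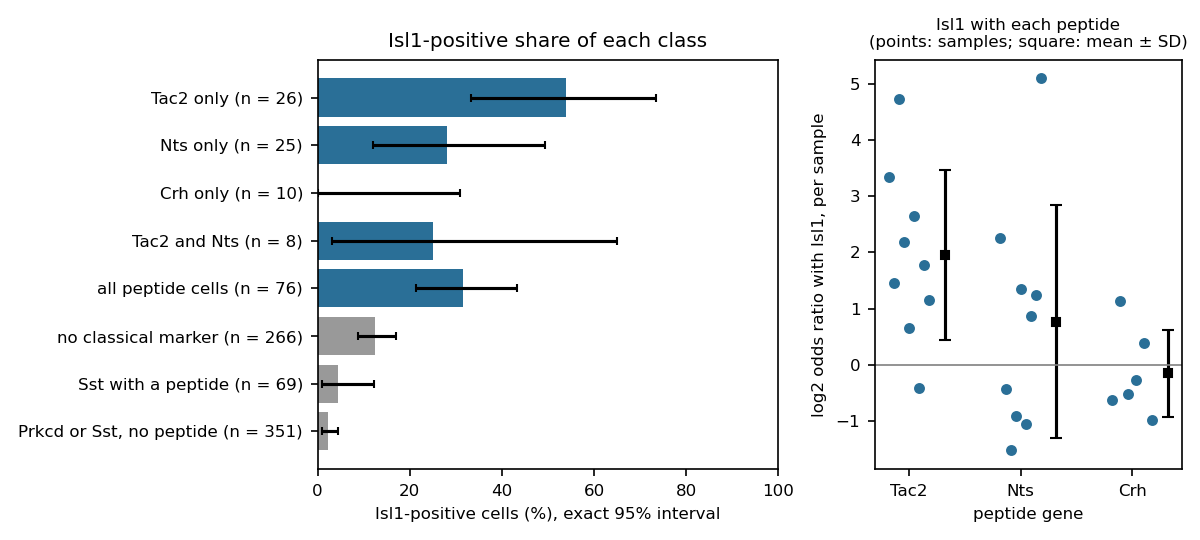
Left, the percentage of Isl1-positive cells with exact 95% binomial intervals in peptide cells by combination (blue) and in 3 other classes (grey); right, the log2 odds ratio of Isl1 with each peptide gene, 1 point per sample, with the mean and SD. Of the sets with 1 peptide, Tac2 alone has the highest share at 53.8%, and 8 of 9 points for Tac2 lie above 0, 2 of them from samples with no cell carrying both genes.

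The 3 kinds of peptide cell differed in other genes, which were picked for display after their values were seen and are given with no test. Nefm, a neurofilament subunit, was positive in 25 of 26 cells with Tac2 alone (96.2%), 17 of 25 with Nts alone (68%) and 0 of 10 with Crh alone, a count that allows up to 30%. Tshz2, a zinc finger transcription factor, was positive in 80.8%, 76% and 10% of the same sets. Aldoc, aldolase C, was positive in 76.9%, 68% and 10%. The order was the opposite for Crym, the thyroid hormone binding protein mu-crystallin, at 7.69%, 12% and 70%, and for Penk, the enkephalin precursor, at 46.2%, 72% and 90%. The 10 cells with Crh alone came from 4 samples.

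Shares over pooled cells also differed between Isl1-positive and Isl1-negative peptide cells and are given with no test. Of the 24 Isl1-positive cells 9 came from sample 1 and 17 carried Tac2, and none carried Crh alone. Whether the shares follow the peptides carried was not tested. Nefm was positive in 91.7% of the 24 Isl1-positive and 59.6% of the 52 Isl1-negative cells, and Tshz2 in 83.3% and 53.8%. Calb2, calretinin, was positive in 29.2% and 5.77%. Penk was positive in 37.5% of Isl1-positive and 75% of Isl1-negative cells, and Crym in 0% and 28.8%.

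**Figure D3:**
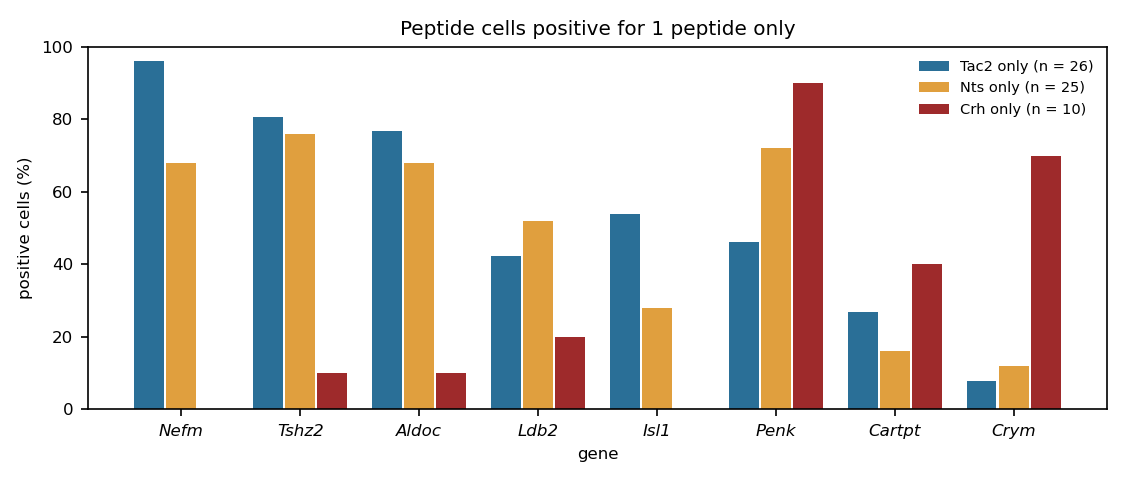
Bars give the percentage of cells positive for each gene among peptide cells with Tac2 alone, Nts alone or Crh alone. Nefm falls from 96.2% in Tac2 cells to 0% in Crh cells, while Crym climbs from 7.69% to 70%.

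To ask how these neurons differ from the 2 classes by which central amygdala neurons are usually named, they were set against 351 inhibitory neurons positive for Prkcd (289), Sst (56) or both (6) and negative for the 3 peptides. Counts were summed per sample and class and tested with edgeR's quasi-likelihood test, with the sample as a block and Benjamini-Hochberg adjustment. Sample 2, with 3 peptide cells, was left out, leaving 73 peptide cells and 297 reference cells in 8 samples. Peptide cells had 286 genes higher (2.2% of 12996 tested) and 401 lower (3.09%) at an adjusted p under 0.05. The rule's own genes are not counted. The median log2 fold change of all genes was -0.36. With equal cell numbers drawn from both classes it was 0.11, the calls were 221 higher and 170 lower, and the higher share of calls was 56.5% in place of 41.6%.

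Of 14 neurofilament, stathmin and general neuron genes, 7 were higher, 0 lower and 7 did not pass, with a list median of 0.57 against -0.36 over all genes. Of the same list 0 of 14 passed against Sst-only cells and 1 of 14 (Nefm) was higher against Sst cells with a peptide. Nefm stood at 303, 713 and 1245 CPM (lowest, median and highest sample) in peptide cells and at 8.45, 66.8 and 85.6 CPM in Prkcd or Sst cells. The samples of the classes did not overlap, as for 2.39% of all genes, and the log2 fold change was 3.63 ± 0.29 (SE; edgeR adjusted p = 3.51e-06). Nefl, the light neurofilament subunit, was at 404, 504 and 1035 CPM against 16.2, 105 and 136 CPM, a log2 fold change of 2.76 ± 0.32. Stmn2, a regulator of microtubules in growing axons, was at 679, 904 and 1149 CPM against 78.0, 251 and 369 CPM, a change of 2.02 ± 0.20. Ina, Tubb3, Stmn3 and Snap25 were higher by 0.53 to 0.78 log2 units. The peptide cells were also the deeper class, and with every cell thinned to 50000 counts 217 genes were higher and 333 lower over all genes.

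Isl1 was at 35.3, 96.3 and 169 CPM in peptide cells and at 0, 5.84 and 30.1 CPM in Prkcd or Sst cells, with no overlap between the samples. Its log2 fold change was 4.25 ± 1.06 (SE; edgeR adjusted p = 0.0303). The call was lost in 4 of 8 fits that left out 1 sample (3.68, edgeR adjusted p = 0.0818 without sample 1) and when Mbp-positive cells were removed (2.31, edgeR adjusted p = 0.446, in 6 samples). Of 34 transcription factors tested, 3 were higher (Isl1, Satb1 and Tshz2) and 2 lower (Sox5 and Sp9). Satb1, a chromatin organizer, was higher by 3.84 ± 0.73 log2 units. Sox5, a SoxD family factor, was at 0, 0 and 1.62 CPM in peptide cells against 109, 139 and 168 CPM, with no overlap and a log2 fold change of -8.26 ± 0.60 (SE; edgeR adjusted p = 1.51e-06). No peptide cell was Sox5-positive, which allows a share of up to 3.95%, against 46.7% of Prkcd or Sst cells. Sp9, a zinc finger factor of developing striatal neurons, was lower by -4.53 ± 1.0. Against Sst-only cells 0 of 29 transcription factors of this list passed.

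Of 8 receptors and binding proteins of the 3 peptides, 0 were higher, 2 lower and 6 did not pass. Crhbp encodes a secreted protein that binds and sequesters CRH. It had 1 count in the peptide cells and 2432 in the reference, a ratio of summed, depth-scaled counts of 807 (95% counting interval 145 to 31869), and was lower in 7 of 8 samples, the eighth having 0 in both classes. The reference was at 0, 13.8 and 222 CPM (lowest, median and highest sample), so the pooled ratio leans on the highest sample. Tacr1, the substance P receptor, was at 0, 0.182 and 11.6 CPM against 15.7, 29.7 and 56.6 CPM, with no overlap and a log2 fold change of -4.34 ± 1.0 (edgeR adjusted p = 0.0191). That call was lost without sample 4 (edgeR adjusted p = 0.056). Tacr3, the neurokinin B receptor, was 3.62 ± 1.30 and Crhr1 4.09 ± 1.48, neither passing (edgeR adjusted p = 0.141 and 0.139). Ntsr1, the main neurotensin receptor, was -4.90 ± 1.39 (0.0553), Ntsr2 -0.47 ± 1.67, Crhr2 0.08 ± 1.53 and Sort1 0.32 ± 0.34. Against Prkcd-only cells 2 of the 8 were higher and 3 lower. Tacr3 had 432 counts in peptide cells and 1 in Prkcd-only cells (edgeR adjusted p = 0.000191), and Crhr1 had 168 and 1 (edgeR adjusted p = 0.00854). Ntsr1 was lower there, by -5.09 ± 1.38 (edgeR adjusted p = 0.0343), as were Tacr1 and Crhbp. Against Sst-only cells Crhbp alone of 6 tested passed, and Tacr3 was -0.27 ± 1.35 and Crhr1 1.78 ± 1.87.

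Among 11 other neuropeptide genes 1 was higher, 2 were lower and 8 did not pass. The list median was -3.06 against -0.36 over all genes, and 1 of the 11 was above 0. Pnoc, the nociceptin precursor, was at 0, 155 and 404 CPM against 0, 7.12 and 23.5 CPM, higher in 7 of 8 samples (log2 fold change 4.10 ± 0.95, edgeR adjusted p = 0.0193). Against Sst cells with a peptide Pnoc did not pass, at medians of 120 and 134 CPM (-0.43 ± 0.83, edgeR adjusted p = 0.931). Cartpt, the CART precursor, was at 3.11, 131 and 266 CPM against 768, 1206 and 1831 CPM, with no overlap and a log2 fold change of -3.89 ± 0.59 (edgeR adjusted p = 0.00132). Nppc, the C-type natriuretic peptide gene, had 0 counts in peptide cells and was at least 42.1-fold lower, taking 3 counts in the whole class as the floor. The call for Nppc was lost in all 8 fits that left out 1 sample, and that for Pnoc in 3 of 8. Penk, at -0.71 ± 0.21, did not pass (edgeR adjusted p = 0.0729). Of 13 genes for peptide processing, 2 were higher and 3 lower. Cadps2, which primes dense-core vesicles for release, was higher by 3.19 ± 0.43 and Pam, which amidates peptides, by 1.79 ± 0.39. Cpd, a carboxypeptidase, was lower (-2.98 ± 0.49), with smaller differences for Cpe (-0.51 ± 0.12) and Pcsk1n (-0.29 ± 0.06). The median of all genes in this fit was -0.36, with Cpe little below it and Pcsk1n above it. With equal cell numbers that median was 0.11, so it is no fixed baseline for either gene.

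Of 18 immediate early genes, which neurons induce within minutes of activity, 8 were lower, 0 higher and 10 did not pass, with a list median of -1.96 against -0.36 over all genes. Of this list 8 of 17 were lower against Prkcd-only cells and 0 of 14 passed against Sst-only cells. Against Sst cells with a peptide 1 of 15 (Egr4) was lower, and against cells without a marker 0 of 16 passed. Fos was lower by -2.32 ± 0.36, Junb by -1.91 ± 0.19, Egr1 by -1.22 ± 0.22 and Npas4 by -2.76 ± 0.68. Egr4 was at 7.59, 35.1 and 82.3 CPM in peptide cells and at 78.5, 102 and 198 CPM in the reference. Egr2 had 2 counts against 491, a ratio of 81.4 (95% counting interval 22.4 to 674), and its call was lost without sample 4 (edgeR adjusted p = 0.0656). Bdnf, a neurotrophin gene, was lower in 7 of 8 samples (-6.69 ± 1.26), and Klf4 by -5.40 ± 1.26.

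**Figure D4:**
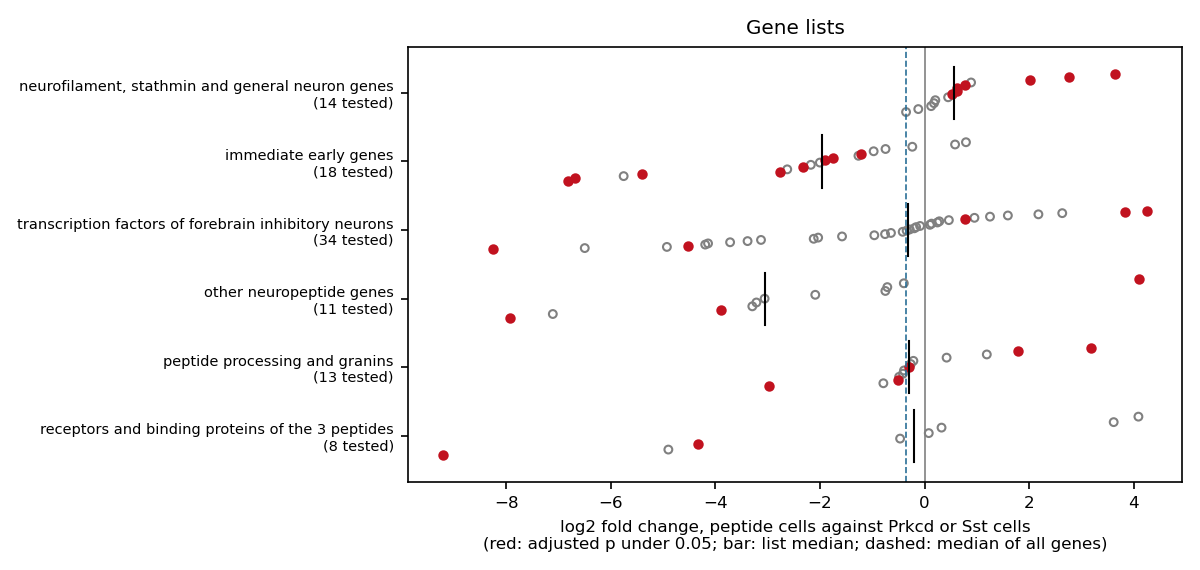
Each circle is a gene of 1 of 6 lists, placed by its log2 fold change in peptide cells against Prkcd or Sst cells; red circles passed edgeR at an adjusted p under 0.05, black bars are list medians and the dashed line is the median of all genes (-0.36). The neuron list sits to the right with a median of 0.57 and the immediate early genes to the left with a median of -1.96.

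Some channels and transmitter receptors passed, where 2.2% of all genes tested were higher and 3.09% lower. Whether the lists exceed these shares was not tested. Of 28 sodium, calcium and cation channels 5 were higher and 1 (Cacna2d3) lower. The higher ones included Cacna1g, a T-type calcium channel, at 20.1, 87.0 and 103 CPM against 4.35, 8.59 and 25.6 CPM (2.79 ± 0.46), and Scn9a, a sodium channel, at 41.6, 68.7 and 109 CPM against 2.59, 13.7 and 23.5 CPM (2.50 ± 0.47). Against Sst cells with a peptide neither passed. Cacna1g was 3.36 ± 0.90 there and Scn9a -0.14 ± 0.44 (edgeR adjusted p = 0.115 and 0.963). Of 21 glutamate receptor genes 4 were higher and 0 lower. Among them, Grin3a, an NMDA receptor subunit, differed by 2.86 ± 0.58, Grik2, a kainate receptor subunit, by 1.74 ± 0.33 and Gria3, an AMPA receptor subunit, by 0.96 ± 0.23. Of 19 GABA and glycine receptor genes 2 were higher, among them Glrb (0.98 ± 0.24), the glycine receptor beta subunit. Of 29 potassium channel genes 2 were higher, Kcnk3 (4.90 ± 1.28) and Kcnc1 (0.81 ± 0.20), and Kcnip2 was lower (-1.69 ± 0.25). The calls for Kcnk3 and Glrb were each lost in 6 of 8 fits that left out 1 sample (edgeR adjusted p = 0.106 and 0.0968 without sample 1). Against Sst-only cells 0 of 27 sodium, calcium and cation channels and 0 of 29 potassium channels passed. For glutamate receptors it was 0 of 21 and for GABA and glycine receptors 0 of 18. Against Sst cells with a peptide these receptor lists also had 0 of 21 and 0 of 18 passing. Kcnc1 was higher there (1 of 29 potassium channels) and Cacna2d1 lower (1 of 27 cation channels). No receptor gene for monoamines, acetylcholine, adenosine or cannabinoids passed edgeR's test, of 19 tested. Against Prkcd-only cells 3 of the 19 passed, Adra2a and Htr2c being higher and Cnr1 lower.

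The largest fold changes included genes of other kinds. Csrp2, a LIM-domain protein, was at 4.02, 56.4 and 67.7 CPM against 0, 1.64 and 15.3 CPM (4.88 ± 0.76). Aldoc was at 24.7, 367 and 772 CPM against 0.966, 26.8 and 56.9 CPM (4.13 ± 0.55, edgeR adjusted p = 0.00044). It was positive in 61.8% of peptide cells and 4.84% of the reference. The astrocyte genes Aqp4, Gja1, Slc1a3 and Aldh1l1 were at 0 in the same peptide cells. Stk32a, Rmst, Gm16836, Tekt5, Mgat4c, Lhfpl5, Mapk6 and Cntn2 were higher by 3.98 to 5.09 log2 units in 8 of 8 samples. With 1 sample left out the calls were lost in 7 of 8 fits for Gm16836, 6 each for Stk32a and Rmst, 4 for Cntn2 and 3 for Lhfpl5. On the lower side, Mfsd2a, a lysophospholipid transporter, and Slc38a5, an amino acid transporter, also had 0 counts, which puts them at least 111-fold and 123-fold lower. Papln, Nup62cl, Arhgap42 and Col18a1 likewise had 0 counts, with bounds of 42.6-fold to 81.5-fold. The call was lost in all 8 such fits for Col18a1 and in 1 for Arhgap42. Sostdc1, an inhibitor of BMP and Wnt signals, was lower by -7.28 ± 0.94, and Cyp26b1, which degrades retinoic acid, by -7.22 ± 1.18. Of the higher genes in this paragraph only Aldoc also passed against Sst cells with a peptide. The others there had edgeR adjusted p = 0.106 (Csrp2, 4.55 ± 1.20) to 0.946 (Stk32a, 0.55 ± 1.23). Sostdc1 was -0.33 ± 2.45 there (edgeR adjusted p = 0.993). Of the 47 named genes that passed against Prkcd or Sst cells, 39 were tested against Sst-only cells and 1 passed.

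The reference was mostly Prkcd cells, and each kind was also taken alone. Against Prkcd-only cells 417 genes were higher (3.23%) and 518 lower (4.01%) of 12913. Against Sst-only cells, in 7 samples with 64 and 53 cells and at least 3 of each, edgeR called 0 higher (0%) and 3 lower (0.0268%) of 11176, with 427 and 200 at an unadjusted p under 0.05. Pdyn and Crhbp were among the 3. Whether the difference from Sst-only cells is smaller than that from Prkcd-only cells was not tested, and the former rests on fewer cells. Nefm was higher than in Sst-only cells in 7 of 7 samples with no overlap, as for 0.286% of all genes (2.35 ± 0.48, edgeR adjusted p = 0.11), and Isl1 in 5 of 7 (3.30 ± 1.10, 0.629). Pdyn, the dynorphin precursor, was higher than in Prkcd-only cells (4.24 ± 0.76, edgeR adjusted p = 0.00249) and lower than in Sst-only cells (-3.55 ± 0.53, 0.005).

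A further class, 69 Sst cells, carries Crh, Tac2 or Nts and lacks Prkcd. With samples 2 and 7 left out, 68 peptide cells and 61 of these Sst cells were compared in 7 samples. Of 11534 genes, 51 were higher (0.442%) and 64 lower (0.555%). Peptide cells are shared with the comparison above, so the results are set side by side and not taken as separate support. Parm1, a mucin-like membrane protein, was at 17.4, 72.5 and 191 CPM in peptide cells and at 0, 0 and 1.89 CPM in the Sst cells (7.20 ± 0.80, edgeR adjusted p = 0.000352). Pdyn was at 15.5, 87.7 and 543 CPM against 829, 2301 and 2928 CPM (-4.09 ± 0.38, edgeR adjusted p = 5.43e-05), with no overlap, as for 0.815% of all genes. Crym was also separate, at 0, 30.9 and 113 CPM against 125, 403 and 443 CPM (-4.15 ± 0.68).

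Wfs1, the wolframin gene of the endoplasmic reticulum, was lower by -1.83 ± 0.17, and of the transcription factors Meis2 was lower by -1.39 ± 0.25 and Bcl11b by -0.99 ± 0.17. Ldb2, a LIM-domain binding cofactor, was higher (3.55 ± 0.66). Calb1, calbindin, was at 293, 439 and 726 CPM against 92.3, 191 and 272 CPM (1.43 ± 0.22). Nefm (2.98 ± 0.46), Aldoc (3.83 ± 0.54) and Cdh13, T-cadherin (4.36 ± 0.86), were higher in 7 of 7 samples. Cartpt was higher here (4.47 ± 0.59, 3.11, 178 and 266 CPM against 0, 3.68 and 20.6 CPM), while it was lower against Prkcd or Sst cells. Isl1 did not pass (4.11 ± 1.06, edgeR adjusted p = 0.0956), though it was higher in 7 of 7 samples. Crhbp and Sox5 had too few counts in these classes to be tested. Their low level was thus not shown to set peptide cells apart from these Sst cells. Of the 27 named genes that passed, 8 passed in every fit that left out 1 sample, namely Parm1, Cartpt, Calb1, Nefm, Crym, Pdyn, Wfs1 and Pcdh19. The calls were lost in 5 of 7 such fits for Cdh13, 2 for Meis2 and 1 for Ldb2.

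The peptide genes themselves, given as a description, had lower medians in the summed peptide cells than in Sst cells with a peptide. Nts was at 110, 437 and 800 CPM against 504, 988 and 2316 CPM. Crh was at 0.915, 193 and 433 CPM against 176, 401 and 1083 CPM, and Tac2 at 188, 452 and 1899 CPM against 184, 1286 and 2887 CPM. Fewer peptide cells were positive for each gene: Crh in 17 of 76 against 33 of 69, Tac2 in 37 against 44 and Nts in 39 against 48. Among Crh-positive cells the median was higher in peptide cells, at 1060.0 CPM against 844 CPM, while it was lower for Tac2 (1152 against 1760.0 CPM) and Nts (576 against 1111 CPM).

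Against the 266 inhibitory neurons with none of the 5 genes, few genes passed. In 8 samples with 73 and 242 cells, 8 of 12866 genes were higher (0.0622%) and 11 lower (0.0855%). Gnas, the stimulatory G protein alpha subunit, was at 2003, 3178 and 5268 CPM against 1264, 1551 and 2005 CPM (0.98 ± 0.09, edgeR adjusted p = 0.000114). Stmn2 (0.94 ± 0.11) and Nefm (1.02 ± 0.17) were higher in 8 of 8 samples, and Tshz2 was at 134, 282 and 515 CPM against 46.6, 86.5 and 163 CPM (1.70 ± 0.22). BC048546 (2.03 ± 0.36), Arhgdig (0.96 ± 0.16) and Arl6ip1 (0.52 ± 0.08) were also higher. Against Sst cells with a peptide, Nefm passed and the others named here did not (edgeR adjusted p = 0.253 to 0.891). Tshz2 was -0.21 ± 0.29 in that comparison, Gnas -0.24 ± 0.10, Arl6ip1 -0.32 ± 0.13 and Stmn2 0.16 ± 0.12. BC048546 was 1.31 ± 0.46 and Arhgdig 0.54 ± 0.19.

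Sox5 was lower again, at 36.6, 49.1 and 80.0 CPM in the cells without a marker (-7.16 ± 0.82, edgeR adjusted p = 0.000646), as were Cyp26b1 (-7.40 ± 1.03) and Pgam2 (-7.06 ± 0.80). Cck, cholecystokinin, was at 0, 0 and 45.6 CPM against 2.75, 153 and 389 CPM (-5.74 ± 1.0). Upk1b was lower by -6.19 ± 0.76, Ibtk by -5.93 ± 1.09 and Myh7 by -1.65 ± 0.25. With 1 sample left out the calls against cells without a marker were lost in 7 of 8 fits for Ibtk, 6 each for Cck and BC048546, 4 each for Nefm and Arhgdig, 2 for Arl6ip1 and 1 for Cyp26b1. The oligodendrocyte list summed to 52.3 to 10159 CPM in the cells without a marker and to 25.6 to 109 CPM in peptide cells, and its part in these differences was not tested. Isl1 was higher in 7 of 8 samples but did not pass (1.35 ± 0.37, edgeR adjusted p = 0.214).

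**Figure D5:**
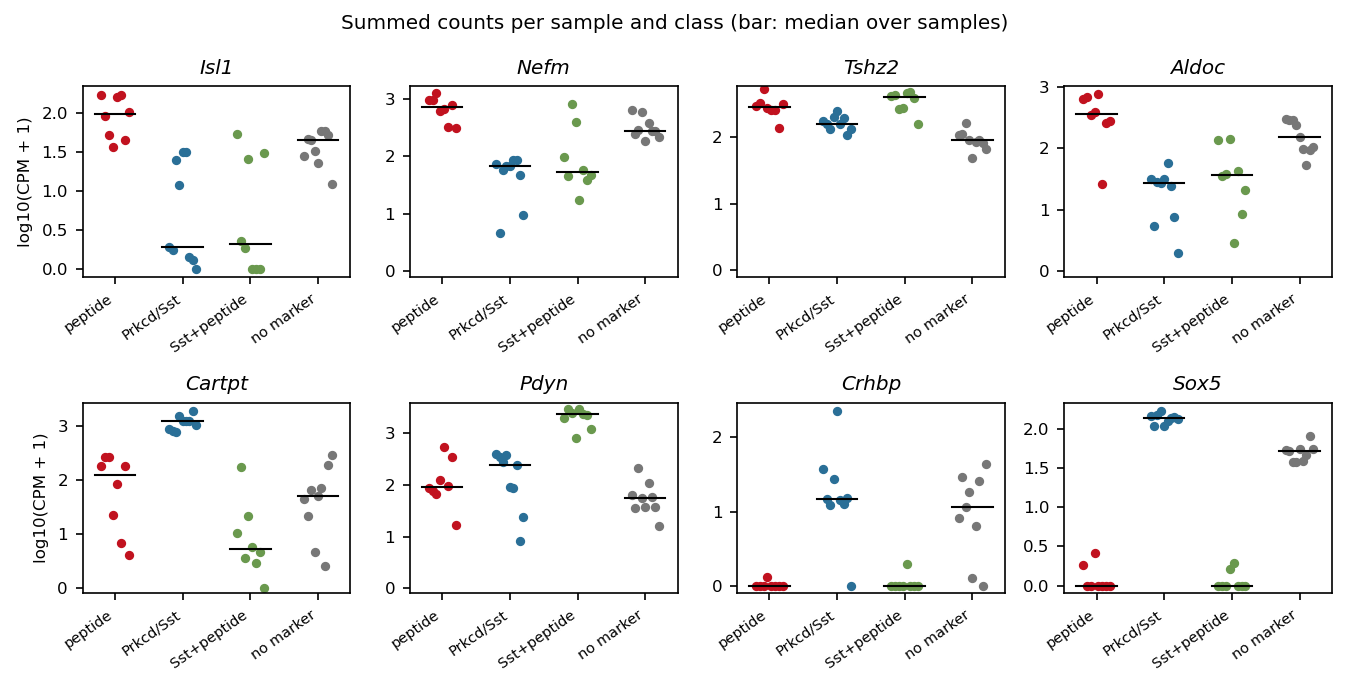
Level of 8 genes as log10(CPM + 1) of counts summed per sample and class, for samples with at least 5 cells of the class, with bars at the median over samples. Sox5 and Crhbp are at or near 0 in peptide cells, Nefm and Isl1 are highest in peptide cells by the median, and Pdyn is highest in Sst cells with a peptide. Between peptide cells and Sst cells with a peptide, Sox5 and Crhbp had too few counts to be tested.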

How the data were processed

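Single-cell RNA-seq of wild-type central amygdala was analysed. The table the authors deposited holds raw counts for 22601 genes and 91 spike-ins in each cell, with a second table naming each cell's sample, animal number and date field. Per the submitters' processing notes, Seurat and the build NCBIM37 were used. No aligner, strand or molecular identifier is given in the sources used here, and counting intervals cover counting error only.

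Counts of each class were summed in samples with 5 or more cells and tested with edgeR 4.0.16 in R 4.3.3 (TMM, filterByExpr, quasi-likelihood, sample as block). Simulated sums had 100 genes changed 2-fold and 100 changed 4-fold. The test found 17 and 48 of them against Prkcd or Sst cells (3 false calls, 13004 genes). It found 2 and 34 against Sst cells with a peptide (3 false calls, 11542 genes) and 13 and 30 against cells without a marker (1 false call, 12874 genes). Many 2-fold changes thus go unseen at the depth of the summed classes, which hold only part of each sample's counts. Each table of Isl1 with a peptide had 0.5 added to its entries before the odds ratio, and a sample needed 1 positive cell of each. DESeq2 1.42.0 and other scalings, thresholds, cell numbers, depths (thinned, seed 7) and left-out samples were alternatives. Other software was matplotlib 3.10.9, scipy 1.17.1, pandas 2.3.3, numpy 2.4.6 and Python 3.11.15. Promoters were matched by symbol, 2 of the 3 peptide genes having an entry.

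The genes named for their fold are the 12 largest per side against Prkcd or Sst cells, and 8 in the other comparisons, among those that passed, averaged 10 CPM or more in the higher class and moved one way in every sample. The top 2 of each list needed only to pass; the rule's genes, Isl1 and the peptides' receptors are named whatever their result, and other list members are examples. The 14 lists hold 330 genes, 318 of them in the table (2 by an older symbol). The members and lists were chosen with earlier results of these data known. Some genes that the rule names are not reported here.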

Additional observations from a re-analysis of the deposited data

Results flagged for a closer look

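Per-sample differences of log2(CPM + 1) between peptide cells and Prkcd or Sst cells were examined for samples standing apart, by the gap of the highest or lowest sample to its neighbour. Of 52 sets of samples examined, 6 had such a sample, where chance flags about 1 in 20. Cyp26b1 differed by -2.31 in sample 5, against -5.03 to -4.31 in the other samples. Calcrl, the CGRP receptor gene, differed by 1.71 in sample 1, against -4.98 to -2.15. Kcnk3 differed by -0.67 in sample 7, against 2.25 to 4.36. Ramp1, the partner of Calcrl in the CGRP receptor, differed by -5.17 in sample 8, against -2.18 to 0.0029. Egr2 differed by 0 in sample 9, against -4.63 to -2.90, and Bdnf by 0.17 in sample 5, against -5.66 to -4.38.

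Outside the inhibitory neurons, 4 of the other 19 cells were positive for Crh, Tac2 or Nts, and they entered no comparison.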

How the results depend on the processing

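Against Prkcd or Sst cells (286 higher, 401 lower), DESeq2 called 658 and 1149, at least 10 cells per class 141 and 128, positivity at 1 count 8 and 29, removal of Mbp-positive cells 136 and 164, and Sst-only cells as the reference 0 and 3. Lower calls were 170 with equal cell numbers, 182 with sums per animal number and 177 per date field. Leaving out 1 sample gave 176 to 286 higher and 229 to 346 lower, the least without sample 3. The fit without the replicate block called 385 and 343.

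Against Sst cells with a peptide (51 and 64), DESeq2 called 513 and 396, and the fit without the replicate block 31 and 71. Leaving out 1 sample gave 19 to 45 higher and 24 to 61 lower; samples 1, 3, 5, 6 and 8 each moved a count by over 1.5 times (26, 22, 23, 19 and 28 higher). Against cells without a marker (8 and 11), DESeq2 called 187 and 451, thinning 15 and 22, equal cell numbers 2 and 7, and median-of-ratios scaling 21 higher. Leaving out 1 sample gave 4 to 10 and 5 to 10.

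For Isl1 with Tac2 the mean log2 odds ratio was 1.60 to 2.24 with 1 sample left out and 0.86 with positivity at 1 count (adjusted exact p = 0.375), and the difference was 18.8 percentage points (0.135). For Nts it was 0.23 to 1.05, and 1.43 with positivity at 3 per 10000 (0.0391). For Crh it was -0.40 to 0.021 (0.021 without sample 8), and changed sign to 0.24 in all inhibitory neurons, 1.43 at 3 per 10000 (adjusted exact p = 0.0391), 0.89 at 1 count and 0.31 without Mbp-positive cells.

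Receptor genes that had not passed changed sign. Against Prkcd or Sst cells Tacr3 was -0.27 and Sort1 -0.46 with Sst-only cells as the reference. Ntsr2 there was 0.63 with DESeq2, 1.67 with equal cell numbers, 1.07 at 3 per 10000, 0.46 at 1 count, 1.35 per date field, 0.13 with Prkcd-only cells and -1.25 to 0.34 with 1 sample left out, above 0 without sample 6. Ntsr1 against Sst cells with a peptide was 0.074 with equal cell numbers and -2.60 to 2.32 with 1 sample left out, above 0 without sample 3 (2.32) or 4 (2.25). Against cells without a marker Crhr1 was -0.043 with thinning and -0.23 to 0.66 with 1 sample left out, below 0 without sample 4 or 9, and Ntsr2 was 0.32 with DESeq2, 2.54 with equal cell numbers and -0.94 to 0.53 with 1 sample left out, above 0 without sample 1, 6 or 7. Causes were not tested.

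No call reversed among the named genes that passed. Of the 47 against Prkcd or Sst cells 28 passed with every sample left out in turn, of the 27 against Sst cells with a peptide 8 did, and of the 15 against cells without a marker 7 did. Of the same 47, 32 passed with equal cell numbers, 18 without Mbp-positive cells, 15 with at least 10 cells, 5 with positivity at 1 count and 1 against Sst-only cells (39 tested).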
